A study of Arabidopsis thaliana with 8 samples.

Results

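Seedlings of Arabidopsis thaliana carrying a dexamethasone-switched ANAC096 construct were compared with empty vector seedlings while both were exposed to the hormone abscisic acid (ABA). The comparison rests on 4 of the 8 arrays of the series, chosen by their titles: 2 ANAC096+ABA arrays and 2 ABA arrays. The ANAC096+ABA seedlings carried pTA-ANAC096 and the ABA seedlings carried pTA without an insert. All were Col-0 plants, 12 days old, grown in liquid MS medium. Both groups received 30 µM dexamethasone for 1 h in all, with 2 µM ABA added for the last 30 min. The other 4 arrays held the same lines under 30 µM dexamethasone for 1 h without ABA, and are called ANAC096 and control. Whole seedlings were used, so fewer cells of a type and less RNA per cell cannot be told apart. Both lines had dexamethasone, so the presence of the transgene and its induction cannot be told apart either. Each condition had 2 biological replicates by the design text. The labels name no transgenic clone and do not say whether seedlings were pooled, and the p-values given here rest on the spread between the arrays alone.

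NAC proteins are a large plant-specific family of transcription factors that share a DNA-binding domain near the amino terminus, and several members act in drought and salt responses. ABA is the hormone that plants accumulate when water is short. Its receptors, once bound, hold back a group of protein phosphatases, which frees protein kinases to activate bZIP transcription factors on ABA-responsive promoters. The series title names cooperation of a NAC factor with bZIP factors in dehydration and osmotic stress, and the comparison described here asks which transcripts differed between the lines while ABA was present.

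Each array carried 43603 probes for Arabidopsis transcripts. Of these, 32732 to 34814 were well above background on an array and 0 spots were saturated. The ANAC096+ABA arrays lay in slide columns 3 and 4 and the ABA arrays in columns 1 and 2 of the same slide row, so line and slide column cannot be told apart. The scanner files give an array maker's identifier for each probe and do not pair it with a gene, and 0 of the 43603 identifiers were found in the reference gene table. Probes are therefore reported by identifier, no gene family or pathway is counted, the ANAC096 transcript was not checked, and the seedling label could not be set against marker genes. Several probes may belong to 1 gene.

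Under ABA the transcripts of the 2 lines differed over a large share of the array, and mostly by less than 2-fold. The calls were about even in both directions on levels relative to a percentile of each array's own signal. Such a scale favours an even split, so the evenness is not a finding about the transcripts. With the spike-in scaling described below, 15979 probes were called higher and 1941 lower. Of 34503 tested probes, limma called 7649 higher and 7731 lower in ANAC096+ABA at a Benjamini-Hochberg adjusted p under 0.05, together 15380 or 44.6% of those tested. Called and at least 2-fold changed were 2531 probes (7.34%), of which 1381 were higher (4.0%) and 1150 lower (3.33%). Both arrays of 1 group lay above both arrays of the other for 26765 of the 33976 tested probes with a value on all 4 arrays (78.8%). For 2 arrays against 2, such a split has a probability of 0.33 where the groups do not differ. The median absolute log2 difference between the groups was 0.211. Replicate arrays differed by a median of 0.0644 in ANAC096+ABA and 0.0474 in ABA. Large changes were few. At least 4-fold higher were 219 probes and at least 4-fold lower 200. At 8-fold the counts were 35 and 43, of which 20 and 20 were well above background on all 4 arrays. At 16-fold they were 7 and 14, of which 3 and 9 were so measured. The median log2 difference was 1.36 among the probes at least 2-fold higher (quartiles 1.14 and 1.74) and -1.37 among those at least 2-fold lower (quartiles -1.77 and -1.16). Another 66 rises and 84 falls of 2-fold or more were not called. Their median standard errors were 0.743 and 0.662, against 0.0776 among the called probes. Without ABA replicate 1, the probes called lower at any fold numbered 5087, and those at least 2-fold lower 1130.

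The 2-fold balance depended on what the arrays were scaled to. All levels here are log2 of the processed signal relative to the array's own 75th percentile. On that scale the 7 measured E1A spike-ins, RNAs added in fixed amounts, were lower in ANAC096+ABA by a log2 difference of -0.36, with single spike-ins between -0.39 and -0.31. Their mean log2 level was -0.06 ± 0.18 in ANAC096+ABA and 0.29 ± 0.06 in ABA (SD, n = 2 each). Scaled to these spike-ins, the 2-fold counts became 2964 higher and 616 lower, and at any fold 15979 were called higher and 1941 lower. All 1381 probes of the higher list stayed at least 2-fold higher, while 588 of the 1150 lower probes stayed at least 2-fold lower. This scaling adds a positive amount to every difference, so the higher list could not drop below 2-fold and its retention tests nothing. All 1150 were still called lower on the spike-in scale. With each array scaled to its median instead of its 75th percentile, the 2-fold counts were 1243 higher and 1262 lower, so the small excess of higher probes turned.

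**Figure D1:**
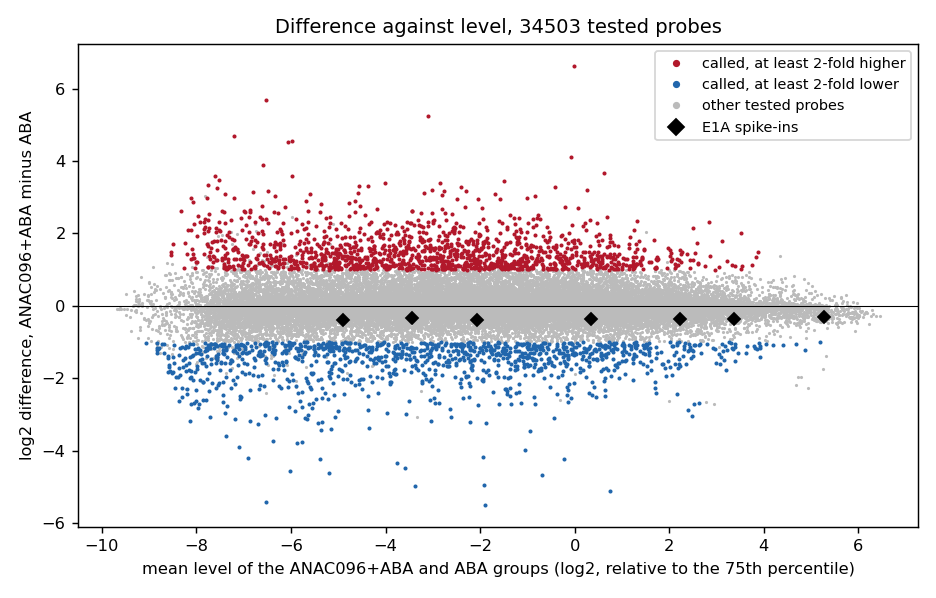
The log2 difference of ANAC096+ABA minus ABA (vertical axis) is plotted against the mean log2 level of the 2 groups relative to the 75th percentile (horizontal axis), one point per tested probe. Red points are the 1381 probes called and at least 2-fold higher, blue points the 1150 called and at least 2-fold lower, grey points the other tested probes, and black diamonds the 7 measured E1A spike-ins, which lie between -0.39 and -0.31 across their whole range of levels.

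Among probes well above background in both groups, A_84_P21604 was raised furthest. Its processed signal was 61700 and 82500 on the ANAC096+ABA arrays, against 616 and 698 on the ABA arrays. The corresponding log2 levels were 3.18 and 3.40 in ANAC096+ABA and -3.34 and -3.32 in ABA. The gap was far wider than the spread within either group, at a log2 difference of 6.63 (98.7-fold, SE 0.08, limma adjusted p 1.5e-06). A_84_P21604 was as clearly split by line without ABA, at 3.01 and 2.94 in ANAC096 and -4.05 and -3.97 in control. Its line difference was 6.99 without ABA, and the test of the change between conditions gave -0.36 (SE 0.11, adjusted p 4.5e-02). That small change did not hold throughout: its adjusted p was 0.0687 with no filter on dim probes, it passed the threshold in 1 of 8 fits that each left out 1 array, and it was 0.61 with spike-in scaling.

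A_84_P13971 was the second of the raised probes. Its signal was 5010 and 5510 in ANAC096+ABA, against 112 and 140 in ABA. Log2 levels were -0.44 and -0.50 in ANAC096+ABA and -5.80 and -5.64 in ABA, a difference of 5.25 (38-fold, SE 0.07, adjusted p 1.7e-06). Without ABA it had levels of -1.54 and -1.50 in ANAC096 and -6.46 and -6.59 in control, a line difference of 5.01 (32.1-fold, SE 0.07). Both raised probes thus had their highest levels in ANAC096+ABA and the next in ANAC096, with the empty vector groups far beneath and no overlap between lines. The line difference of A_84_P13971 changed by 0.24 between conditions (SE 0.11, adjusted p 1.2e-01). That change passed the threshold with spike-in scaling (1.22), with normexp background correction (0.35) and in the authors' value table (0.52).

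The 2 furthest measured falls had another pattern, in which the ABA group stood above all others. A_84_P557326 had a signal of 266 and 320 in ANAC096+ABA, against 10900 and 13100 in ABA. Its log2 levels were -4.67 and -4.60 in ANAC096+ABA and 0.80 and 0.92 in ABA, a difference of -5.50 (45.2-fold lower, SE 0.10, adjusted p 2.8e-06). Without ABA its levels lay between these, at -2.26 and -2.56 in ANAC096 and -2.88 and -2.90 in control. There the line difference was 0.48 (1.4-fold higher, SE 0.10, adjusted p 8.1e-03), the opposite sign. That sign belonged to the 75th percentile scale, since with spike-in scaling the difference without ABA was -0.14 (adjusted p 0.37). The interaction, that is the line difference with ABA minus the line difference without it, was -5.98 (SE 0.14, adjusted p 1.1e-05).

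A_84_P17578 had the same order of groups at a brighter level. Its signal was 1900 and 2300 in ANAC096+ABA, against 66700 and 64300 in ABA. The log2 levels were -1.84 and -1.76 in ANAC096+ABA and 3.41 and 3.20 in ABA, a difference of -5.11 (34.5-fold lower, SE 0.10, adjusted p 2.8e-06). It measured 0.36 and 0.60 in ANAC096 and -0.15 and -0.14 in control, a line difference of 0.63 (SE 0.10, adjusted p 2.7e-03), which was 0.01 with spike-in scaling (adjusted p 0.95). The interaction was -5.74 (SE 0.14, adjusted p 1.1e-05). For both lowered probes the ANAC096+ABA arrays lay below the arrays without ABA and the ABA arrays above them, with no overlap between any of the 3 levels.

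**Figure D2:**
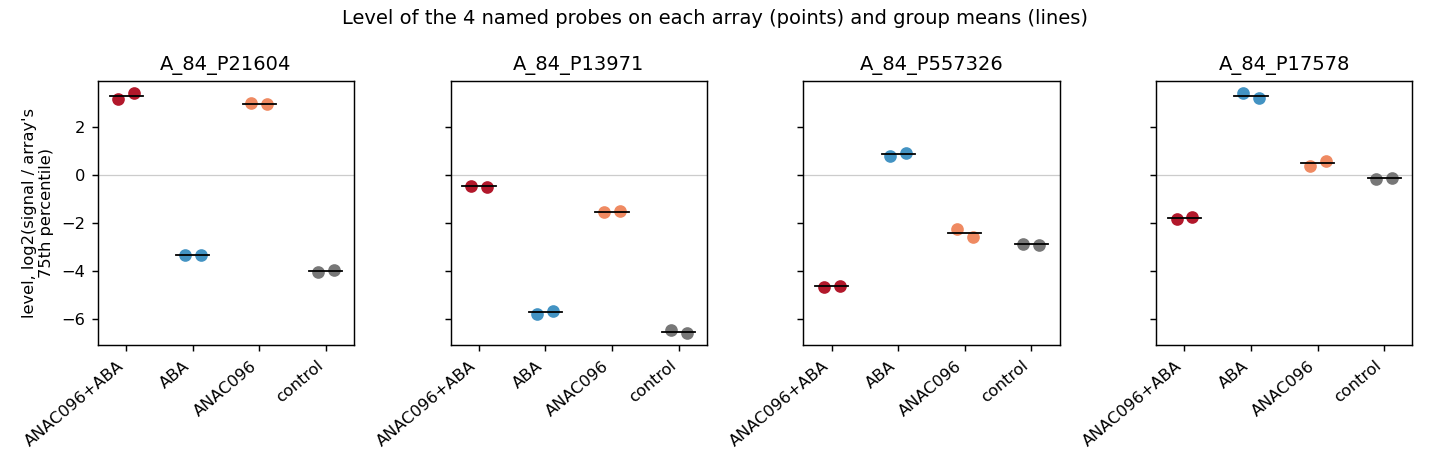
Log2 level relative to the array's 75th percentile (vertical axis) on each array (points) of the 4 groups, with group means as lines, for the 2 probes raised furthest and the 2 lowered furthest in ANAC096+ABA against ABA. A_84_P21604 and A_84_P13971 separate by line under both conditions, while A_84_P557326 and A_84_P17578 are highest in ABA and lowest in ANAC096+ABA.

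Large changes were counted on probes with a measured size. Of the 35 rises of 8-fold or more, 20 were well above background on all 4 arrays with ABA, as were 20 of the 43 falls. The other 15 and 23 were dim, or had no usable spot, on at least 1 of these arrays, so their computed fold was not taken as a measurement. All 20 measured rises had their highest group mean in ANAC096+ABA, and 18 had their lowest in control. Of all tested probes, 6.98% were called and at least 2-fold higher in ANAC096 against control, and so were all 20 measured rises. For the 19 of them measured in all 4 groups the median log2 difference was 3.27 with ABA and 2.91 without it. Their median levels were -0.71 in ANAC096+ABA, -4.04 in ABA, -1.84 in ANAC096 and -4.87 in control. The 20 measured falls, the 2 named ones among them, were mixed. Without ABA 6 of them were at least 2-fold lower, 4 were called lower by less and 4 were not called. Another 4 were called higher by less and 2 were at least 2-fold higher. Of all tested probes, 2.43% were at least 2-fold lower and 6.98% at least 2-fold higher without ABA. At any fold 33.4% were called lower and 26.3% higher. The order of the named falls, with ABA highest and ANAC096+ABA lowest, was found in 9 of the 20. Their highest mean was in ABA for 10, in control for 7 and in ANAC096 for 3. The median log2 difference of these falls was -3.72 with ABA and -0.26 without it, and median levels were -4.09 in ANAC096+ABA, -0.05 in ABA, -1.89 in ANAC096 and -0.84 in control. These sets were chosen by the difference with ABA, which favours a larger value with ABA than without it. It also favours ANAC096+ABA and ABA as opposite ends of the order of groups. The differences without ABA and the orders can depend on the scale, since the spike-ins lay at 0.64 in ANAC096 and 0.02 in control.

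A part of the changed probes crossed the detection limit. Of the called probes, 202 were well above background on both ANAC096+ABA arrays and on no ABA array. For such probes only a lower bound of the change is known, with the bright group set against either the signal of the dim probe itself or that array's lowest signal well above background, whichever is higher. By this bound 77 of the 202 were at least 2-fold higher, 19 at least 4-fold and 5 at least 8-fold, the largest being at least 12.6-fold higher. In the other direction 195 called probes were well above background on both ABA arrays and on no ANAC096+ABA array. Of these, 83 were at least 2-fold lower by the bound, 22 at least 4-fold and 6 at least 8-fold, the largest at least 19.6-fold lower. Detection was thus gained and lost at nearly the same number of called probes, and at 248 and 245 tested probes, called or not. The median bound was 1.83-fold for the 202 called probes and 1.89-fold for the 195, so many of these changes were small. Among the probes counted at 2-fold, 1148 of the 1381 higher and 866 of the 1150 lower were well above background on each of the 4 arrays. A further 19 higher and 66 lower ones were above background on no array of either group, so that the size of their change was not measured.

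The share of probes past 2-fold differed with probe brightness. Tested probes were split into quartiles by their mean level over all 8 arrays, which depends on the probe as well as on its transcript. Calls at any fold made up 39.7% of the dimmest quartile, 50.9% and 46.6% of the next ones and 41.1% of the brightest. In the dimmest quartile 618 probes rose 2-fold or more in ANAC096+ABA and 469 fell as far, 12.6% of its 8626 probes. In the next, 422 were higher and 271 lower, and in the third 233 were higher and 201 lower. In the brightest quartile 108 were higher and 209 lower (3.67% of 8626). The median standard error was 0.129 in the dimmest quartile and 0.0593 in the brightest. Spike-in scaling, which adds nearly the same amount to every difference, gave 1223 higher and 264 lower in the dimmest quartile, and 295 higher and 102 lower in the brightest. The difference between quartiles was not tested.

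**Figure D3:**
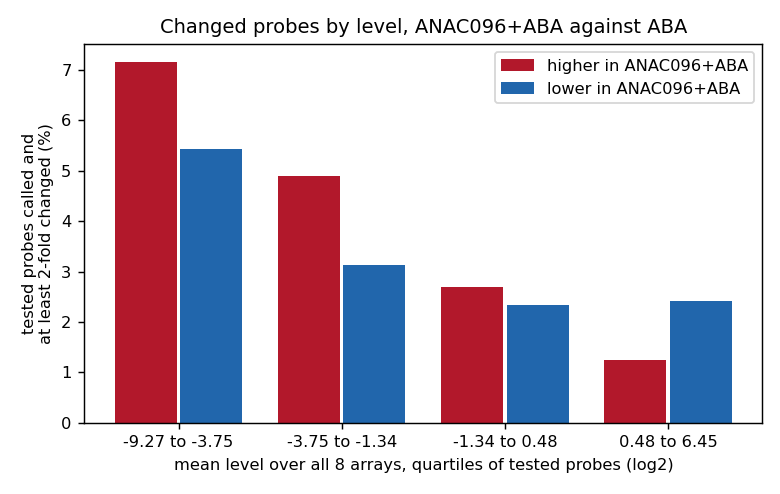
Bars give the percentage of tested probes called and at least 2-fold higher (red) or lower (blue) in ANAC096+ABA against ABA (vertical axis), for quartiles of the mean log2 level over all 8 arrays (horizontal axis). The share of higher probes goes down with brightness, at 7.16%, 4.89%, 2.70% and 1.25%, while that of lower probes is 5.44%, 3.14%, 2.33% and 2.42%.

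In terms of summed signal the raised probes made up a small part of each array. The 1381 higher probes held 2.02% and 2.11% of the summed signal of tested probes on the ANAC096+ABA arrays, and 0.732% and 0.761% on the ABA arrays. The 1150 lower probes held 1.14% on each ANAC096+ABA array, and 2.82% and 2.80% on the ABA arrays. The lists were chosen by this difference, so these shares describe them and test nothing. The 100 brightest probes held 9.17% and 8.38% of the signal in ANAC096+ABA, and 10.0% and 9.35% in ABA.

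Repeat spots of a probe gave the precision of a single reading. Of 13216 tested probes with 2 usable spots on all 4 arrays, both spots pointed the same way in 11473 (86.8%). Their differences were a median of 0.0667 apart. Among the 984 of them past 2-fold, which were chosen by the mean of these spots, each spot alone was at least 2-fold changed in 867. Position on the array moved the difference little: over 16 equal blocks of the array, each with at least 2508 spots above background on all 4 arrays, the median log2 difference lay between -0.06 and 0.03. Spots share an RNA sample and a hybridization, and are not replicates of the condition.

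The line difference with ABA was then set beside the line difference without ABA, which used 4 other arrays on the same slide. There too control lay in slide columns 1 and 2 and ANAC096 in columns 3 and 4. Line and slide column thus cannot be told apart in either difference, nor in what the 2 differences share. Arrays without ABA lay in slide row 1 and those with ABA in row 2, so ABA and slide row cannot be told apart. ANAC096 against control had 20581 of 34503 probes called (59.6%), of which 9068 were higher (26.3%) and 11513 lower (33.4%). Past 2-fold were 3249 probes (9.42%), of which 2410 were higher (6.98%) and 839 lower (2.43%). Spike-in scaling turned this balance to 998 higher and 6893 lower: on the 75th percentile scale the spike-ins lay at a mean log2 level of 0.64 ± 0.09 in ANAC096 and 0.02 ± 0.01 in control (SD, n = 2 each). Of the 2410 probes higher without ABA, 1528 were called higher with ABA (63.4%), 608 were not called and 274 were called lower. For comparison, 22.2% of all tested probes were called higher with ABA. The median log2 difference of the 2410 probes was 0.63 with ABA and 1.48 without it. Of the 839 probes lower without ABA, 613 were called lower with ABA (73.1%, against 22.4% of all tested), 202 were not called and 24 were called higher. Their median difference was -0.68 with ABA and -1.28 without it. On the spike-in scale 757 of the 998 higher probes were called higher with ABA (75.9%, against 46.3% of all tested), and 829 of the 6893 lower probes were called lower with ABA (12.0%, against 5.63% of all tested). Both sets were chosen on the arrays without ABA, which favours a larger value there. Across the 31117 probes measured in all 4 groups the line differences correlated at Pearson r 0.46 and Spearman rho 0.41. This describes probes of 1 slide, which are not independent replicates.

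**Figure D4:**
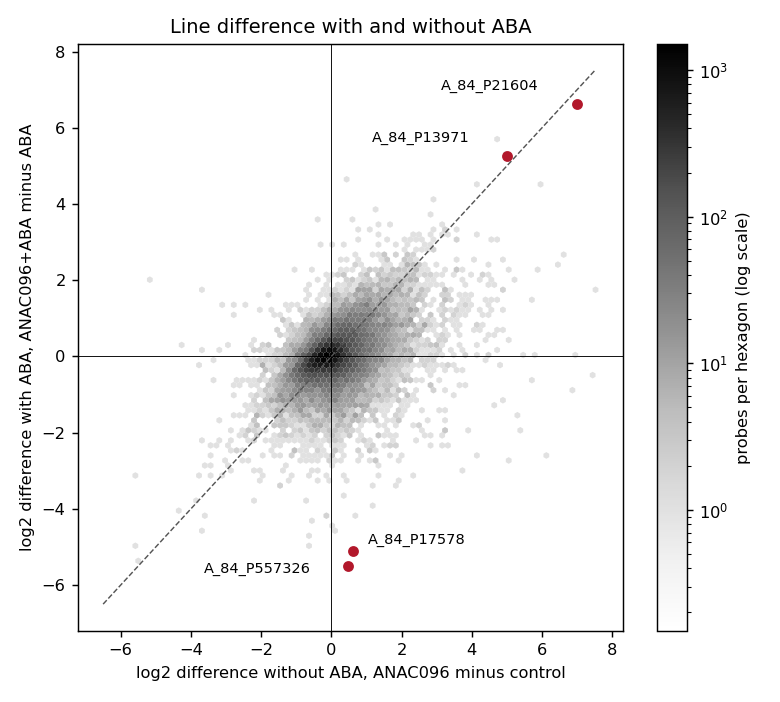
Each hexagon is shaded by the number of tested probes at that log2 line difference without ABA (ANAC096 minus control, horizontal axis) and with ABA (ANAC096+ABA minus ABA, vertical axis), and the dashed line marks equal differences. The 2 named raised probes lie near the dashed line, while the 2 named lowered probes lie at -5.50 and -5.11 with ABA and at 0.48 and 0.63 without it.

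The same counts were read from the lists with ABA. Of the 1381 probes at least 2-fold higher with ABA, 799 were at least 2-fold higher without it too (57.9% of this list and 33.2% of the list without ABA), against 6.98% of all tested probes. A further 408 were called higher by less, 154 were not called, 14 were called lower by less than 2-fold and 6 by 2-fold or more. Of the 1150 probes at least 2-fold lower with ABA, 292 were at least 2-fold lower without it (25.4% of this list and 34.8% of the other), against 2.43% of all tested probes. Another 256 were called lower by less than 2-fold, 285 were not called, 198 were called higher by less than 2-fold and 119 were at least 2-fold higher. The median line difference without ABA was 1.15 over the 1381 raised probes and -0.23 over the 1150 lowered ones. On the spike-in scale 585 of 2964 raised probes were also raised 2-fold without ABA (19.7%, against 2.89% of all tested). There 281 of 616 lowered probes were also lowered (45.6%, against 20% of all tested). The larger percentage thus turned to the lowered list, on a scale where far more of all tested probes were lowered without ABA.

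Levels in the 4 groups describe these sets, whose order of groups follows in part from how they were chosen. The 799 probes raised under both conditions had median levels of -2.05 in ANAC096+ABA, -3.65 in ABA, -2.63 in ANAC096 and -4.61 in control. The 292 lowered under both had -5.00 in ANAC096+ABA, -3.46 in ABA, -4.56 in ANAC096 and -2.76 in control. For the 285 probes lower with ABA and not called without it, the median level was -4.13 in ANAC096+ABA, with the other groups within a narrow band: -2.88 in ABA, -3.03 in ANAC096 and -3.05 in control. The 154 probes higher with ABA and not called without it had medians of -4.43 in ANAC096+ABA, -5.81 in ABA, -5.27 in ANAC096 and -5.42 in control. Both of these sets were chosen as not called between ANAC096 and control, which favours close levels in those groups. That closeness holds on the 75th percentile scale, where the spike-ins lay at 0.64 in ANAC096 and 0.02 in control. The 119 probes that, on the 75th percentile scale, were lower with ABA and higher without it had -5.76 in ANAC096+ABA, -4.07 in ABA, -3.17 in ANAC096 and -4.70 in control. Their median line difference was -1.53 with ABA and 1.55 without it.

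**Figure D5:**
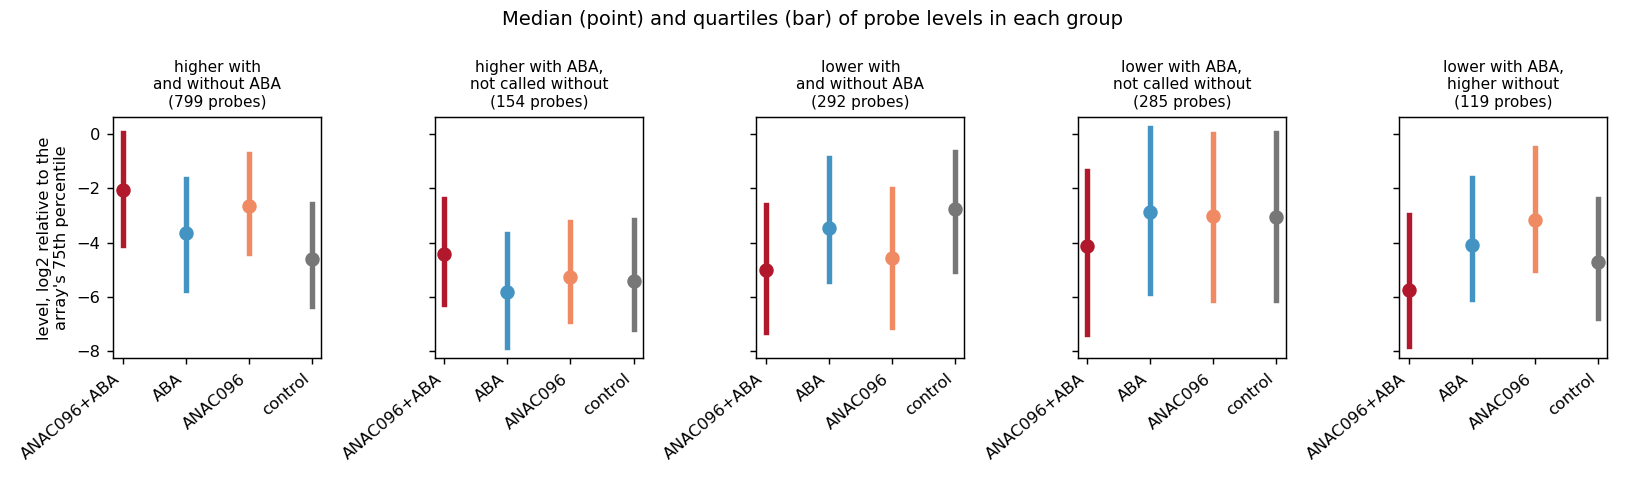
Points are the median log2 level, relative to the array's 75th percentile, of the probes of each set in each group, and bars run from the lower to the upper quartile (vertical axis). From left to right the sets hold 799, 154, 292, 285 and 119 probes; the last has its highest median in ANAC096 (-3.17) and its lowest in ANAC096+ABA (-5.76).

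The 4 group means were also ordered probe by probe. Among the 1381 raised probes, ANAC096+ABA had the highest mean in 1171. The lowest mean was in control for 855 and in ABA for 518. Among the 1150 lowered probes, ANAC096+ABA had the lowest mean in 959. The highest mean was then spread over the other groups: 344 had it in ABA, 275 in ANAC096 and 340 in control. Both lists were chosen by the difference between ANAC096+ABA and ABA, so ABA could not be highest among raised probes or lowest among lowered ones. This choice favours ANAC096+ABA and ABA as opposite ends of the order, so the counts describe the lists and test nothing. The means were not scaled to the spike-ins. Those lay at -0.06 in ANAC096+ABA, 0.29 in ABA, 0.64 in ANAC096 and 0.02 in control, so the orders can depend on the scale. The orders rest on group means of 2 arrays, and neighbouring means were not tested against each other.

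The interaction tested whether the line difference with ABA differed from that without it. Limma called 14748 probes (42.7%), 8352 with a higher value under ABA (24.2%) and 6396 with a lower one (18.5%). At least 2-fold were 2677 (7.76%), of which 534 were higher (1.55%) and 2143 lower (6.21%). Among the 1381 raised probes, the interaction was called higher for 582 and lower for 257, and was not called for 542. Among the 1150 lowered probes it was called lower for 823 and higher for 73, and was not called for 254. For the 799 probes raised under both conditions the interaction was not called for 415, and was higher for 127 and lower for 257. The lists were chosen by one or both of the line differences that enter the interaction, so these counts describe them and test nothing. The median processed signal of negative control spots was 9.78 to 11.7 on the arrays with ABA and 5.89 to 7.47 on those without it. Whether this floor bears on the interaction of dim probes was not tested. With spike-in scaling the interaction was called higher for 28684 probes and lower for 1125 (18539 and 598 at 2-fold), and with normexp background correction for 7369 and 7761, so its direction over all probes depended on the processing. Without ABA replicate 1 it was called higher for 5032.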

How the data were processed

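Per the file headers, the authors' spot intensity values were extracted with Feature Extraction 10.7.1.1, protocol GE1_107_Sep09, from single-colour arrays of design 031025. A value table that the authors deposited holds log2 numbers. It was matched within 5.0e-09 by quantile-normalizing the log2 median signals of all 62976 spots, with column medians of 10.26 to 10.27, and it served as an alternative. The deposited scanner files also mark spots with flags of other kinds (above background, outlier, saturated).

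Here log2 of the processed intensity was taken minus each array's 75th percentile (5340 to 8199 on the linear scale). The 1319 control spots and 376 to 1230 outlier spots per array were left out, and spots of a probe were averaged. A probe was tested where 1 or more of the 4 groups had it well above background on both arrays (79.1% of 43603). Of them, 527 lacked a value on 1 or more of the 4 arrays with ABA and were fitted on the rest. Limma 3.58.1 in R 4.3.3 fitted the 4 group means on all 8 arrays (lmFit, eBayes, Benjamini-Hochberg over all tested probes, threshold 0.05), with 4 residual and 2 prior degrees of freedom. The number of arrays limits the precision. For 2 arrays against 2, the smallest p of a two-sided exact permutation test is 0.33. The fit was also run on simulated data with independent noise and 200 changed probes. Such data hold no effect of slide position or scaling, so they do not test the calls for these.

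Named were the 2 largest rises and 2 largest falls past the threshold, above background on all 4 arrays and not overlapping between groups. They were chosen by the line difference with ABA, which enters the adjusted p-values given for it and for the interaction. Planned gene lists were not used, as probes are not paired with genes. Comparisons, sets and the naming rule were chosen with earlier results of these data known. Normexp used median signals, since the files hold no mean signal. Same-numbered arrays are not said to be paired.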

Additional observations from a re-analysis of the deposited data

Results flagged for a closer look

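The interaction in limma was called for 3 of the 4 named probes: A_84_P557326 (-5.98, adjusted p 1.1e-05), A_84_P17578 (-5.74, adjusted p 1.1e-05) and A_84_P21604 (-0.36, adjusted p 4.5e-02). It was called for 42.7% of all tested probes. The named probes were chosen by the line difference with ABA, which is a part of the interaction, so their count tests nothing. With spike-in scaling the 3 interactions were -5.00, -4.76 and 0.61, so that of A_84_P21604 turned. Over all probes, 8352 interactions were called higher and 6396 lower. Groups of 2 arrays are too small to look for a single array that stands apart.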

How the results depend on the processing

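Scaling decided the balance most. With E1A spike-in scaling, ANAC096+ABA against ABA gave 15979 probes called higher and 1941 lower (2964 and 616 at 2-fold), the interaction 28684 and 1125, and 757 of 998 probes at least 2-fold higher without ABA were called higher with it. Of 6893 lower ones, 829 were called lower. The 2-fold interactions became 18539 higher and 598 lower. Normexp correction gave 881 rises and 774 falls of 2-fold or more, with 357 of 417 lower without ABA called lower with it. Against a log2 difference of 1, limma's treat called 592 higher and 495 lower. At 4-fold the counts were 219 and 200, and at 8-fold 35 and 43. Probes with 2 spots alone, a smaller set of 14300, gave 3445 higher and 3493 lower (582 and 472 at 2-fold), 3899 and 2872 interactions, and 656 and 266 shared calls. The interaction of A_84_P21604 was 0.61 with spike-ins. Leaving out each of the 8 arrays in turn gave 5419 to 8232 probes higher, 5087 to 8601 lower, 1343 to 1419 and 1130 to 1173 at 2-fold, 5032 to 8440 and 4692 to 7309 interactions, and 1403 to 1612 and 540 to 655 shared calls. The lone array of a group is then assumed to vary like the others. With the replicate number as a block, 1377 probes rose and 1142 fell by 2-fold or more, and the interaction of A_84_P21604 missed the threshold (adjusted p 0.0519). Deviations of same-numbered arrays correlated at -0.09 to 0.06 over the 6 pairs of groups. With the fits that left out 1 array set aside, the other 59 counts stayed within 1.5 times, though the lists behind them can differ in size. Without ABA replicate 1, the counts of probes called lower and of interactions called higher moved by more than that. The log2 differences of the 4 named probes kept sign and call under every alternative run, at 6.42 to 6.98, 4.37 to 5.60, -5.55 to -5.08 and -5.21 to -4.75. Median scaling turned the 2-fold balance to 1243 and 1262. The causes were not tested. Signal near background limits the size of changes in dim probes.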
